A study of Rattus norvegicus with 120 samples.

Results

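Immediate-early genes are switched on within minutes of a stimulus without the need for new protein. The 9 described here, of 30560 genes in the deposited tables, were chosen by gene symbol: Fos (ENSRNOG00000008015), Fosb (ENSRNOG00000046667), Jun (ENSRNOG00000026293), Junb (ENSRNOG00000067725), Atf3 (ENSRNOG00000003745), Egr1 (ENSRNOG00000019422), Egr2 (ENSRNOG00000000640), Ier2 (ENSRNOG00000067274) and Zfp36 (ENSRNOG00000058388). Poly-A RNA of kidney and heart of ZSF1 rats, 30 weeks old, was sequenced in 120 libraries, in 12 groups of 10. Obese ZSF1 rats lack a working leptin receptor, and lean ZSF1 rats were the comparison group. In each organ, study A held obese rats given BT2 in chow, obese rats given vehicle and lean rats given vehicle. Study B held only obese rats, given BT2 plus empagliflozin (called the combination), empagliflozin alone, or vehicle. BT2 inhibits BDK, the kinase that switches off branched-chain ketoacid dehydrogenase, and empagliflozin inhibits SGLT2, the glucose carrier of the proximal tubule. The 2 studies had no lean group in common, and the labels do not say which heart and kidney came from 1 rat.

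The products of these genes act soon after growth factors, cytokines, stretch or injury reach a cell, mostly as transcription factors. Kinase cascades ending on serum response factor with its partners, or on CREB, start their transcription, and their mRNAs and proteins are short-lived. FOS and JUN family proteins pair to form AP-1, which binds DNA as a dimer, and ATF3 is a stress-induced relative that can pair with JUN proteins. EGR proteins are zinc finger factors that bind GC-rich DNA, IER2 is a nuclear early-response protein, and ZFP36 (tristetraprolin) binds AU-rich elements of mRNAs such as that of Tnf and speeds their decay. In kidney, Fos, Egr1 and Atf3 are known to be induced by ischaemic injury of the tubule.

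The promoters of these genes are where such signals are read, so the stretches with matches to known response elements are shown for 5 genes. RefSeq promoter windows (rat build GRCr8, 250 bases before to 50 after the annotated start) were found for 6 of the 9 genes; Fos, Jun and Atf3 had no entry. Below are 140 bases of each, 5′ to 3′ on the gene's strand, from 160 to 21 bases before the start, with motif matches in capitals.
Egr1: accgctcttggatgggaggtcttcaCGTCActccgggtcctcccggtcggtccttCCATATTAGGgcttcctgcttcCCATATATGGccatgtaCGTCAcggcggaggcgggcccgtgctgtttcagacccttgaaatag
Egr2: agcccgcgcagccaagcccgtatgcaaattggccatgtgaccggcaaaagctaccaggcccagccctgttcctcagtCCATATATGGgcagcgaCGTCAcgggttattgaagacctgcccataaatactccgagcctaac
Zfp36: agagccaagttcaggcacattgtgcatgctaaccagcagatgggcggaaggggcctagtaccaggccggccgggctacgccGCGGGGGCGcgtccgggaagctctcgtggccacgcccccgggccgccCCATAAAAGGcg
Ier2: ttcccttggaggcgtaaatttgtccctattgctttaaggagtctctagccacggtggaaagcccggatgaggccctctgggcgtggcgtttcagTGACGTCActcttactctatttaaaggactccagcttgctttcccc
Junb: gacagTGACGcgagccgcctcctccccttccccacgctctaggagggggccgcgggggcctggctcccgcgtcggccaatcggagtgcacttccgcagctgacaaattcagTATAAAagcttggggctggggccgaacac

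These windows lie at chr18:26736918-26737057 (Egr1, plus strand), chr20:21054462-21054601 (Egr2, minus strand), chr1:92799129-92799268 (Zfp36, minus strand), chr19:40399213-40399352 (Ier2, plus strand) and chr19:40080966-40081105 (Junb, plus strand). The CArG box is the site of serum response factor, searched as CC, 6 letters that are A or T, and GG. Egr1 held 2 CArG boxes, Egr2 and Zfp36 held 1 each, and the other 3 windows had no match. Egr1 and Egr2 carried the same 10 letters, CCATATATGG, at the same place, -83 to -74 from the start, and a CGTCA at -66 to -62. The cyclic AMP response element TGACGTCA was matched in Ier2 at -66 to -59, and its short form TGACG, read on either strand, was matched in Egr1, Egr2, Junb and, within the full element, Ier2. Zfp36 had 1 match to the EGR site (GCG, any base, GGGCG) at -79 to -71. The AP-1 site TGANTCA was matched in none of the 6 windows, and TATAAA in 2 of them. Searched on both strands of all 33469 promoter windows of the same length, matches were found to the CArG box in 1.64%, to the full cyclic AMP element in 1.83%, to its short form in 21.2%, to the AP-1 site in 7.33%, to the EGR site in 4.98% and to TATAAA in 14.2%. A match describes the letters only.

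**Figure D1:**
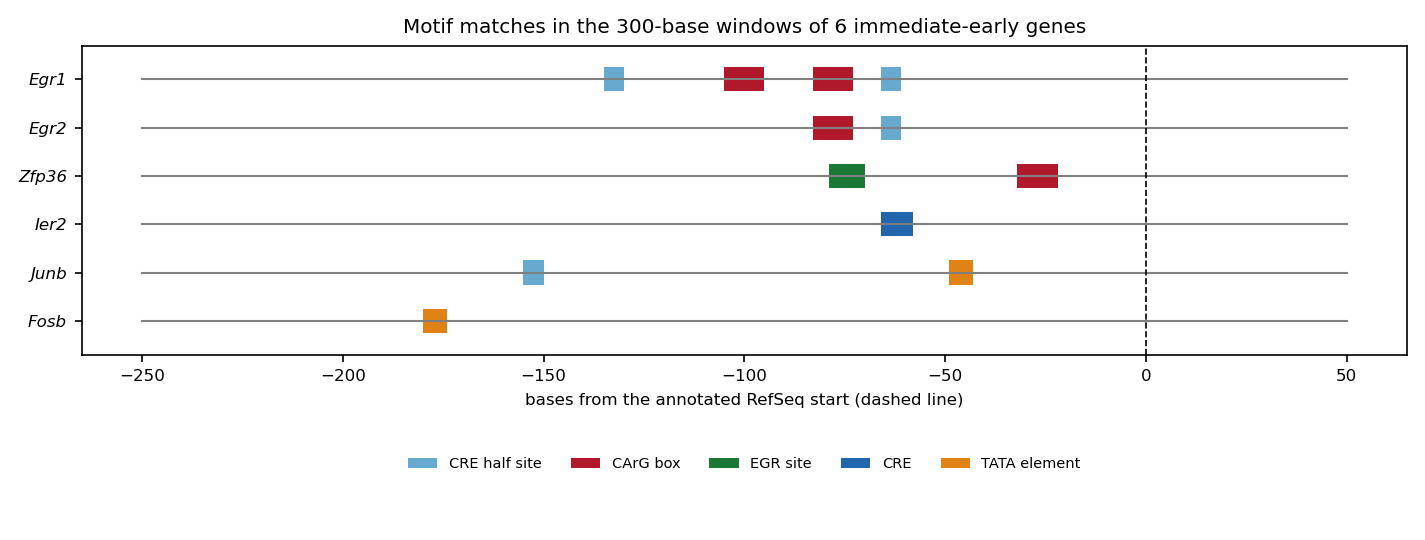
Positions of motif matches in the RefSeq promoter windows of 6 immediate-early genes, as distance in bases from the annotated start, with TGACG alone in light blue. CArG boxes are matched in Egr1 (2), Egr2 (1) and Zfp36 (1), and the full cyclic AMP response element in Ier2.

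Median depth was 10.1 M counts per kidney library (M, 1000000) and 12.2 M per heart library. The 2 shallow kidney libraries, with 22773 counts (BT2 replicate 2) and 776172 counts (vehicle replicate 8 of study B), are in the fits but not in the means below. In kidney libraries of at least 1000000 counts, the tubule marker Umod stood at 2140 to 5660 CPM (counts per 1000000 counts) and Slc12a1 at 386 to 1780 CPM. The summed level of 5 ventricle markers was 26600 to 46700 CPM in heart libraries. Transcripts of another tissue stood out in 6 kidney libraries (lean replicate 8, BT2 replicate 2, combination replicates 1, 4, 5 and 7) and 11 heart libraries. They were flagged by a high level of Actc1 or Alb in kidney, and of Myl7 or Myh4 in heart. Myl7 marks the atrium, so in heart the flag can mean more atrium rather than an organ other than the heart. In BT2 replicate 2 a few counts were enough for the flag, since 2 counts of Atf3 made 61.6 CPM there. Lean kidney replicate 8, with skeletal and cardiac muscle transcripts, also had the highest Fos, Jun, Atf3 and Egr2 of its group. Gene lengths were not used here, so levels are compared between groups and never between genes.

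In kidney, all 8 of the genes that could be tested were higher in obese than in lean vehicle rats of study A. Of all genes tested, 32% were called (edgeR's quasi-likelihood test, Benjamini-Hochberg adjusted p under 0.05), and 16.9% were called higher. The median log2 fold change of the 8 was 0.91, against -0.02 over all genes tested. Fosb had too few counts for the test, and Egr2 entered it through the obese kidneys.

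Egr2, a zinc finger factor known from myelination and immune cells, had the largest ratio of the 8, but was near the floor in lean kidneys. Lean kidneys held 0 to 74 counts of Egr2 each and obese kidneys 20 to 75, so Egr2 reached the count filter through the obese kidneys. It ranged from 1.1 to 4.13 CPM (median 2.92) in obese kidneys, against 0 to 1.76 CPM (median 0.259) in lean kidneys. All but 1 obese kidney lay above every lean kidney. Its log2 fold change was 2.52 ± 0.39 (SE, 5.72-fold, edgeR adjusted p = 5.07e-05). Egr1, its close relative, ranged from 9.46 to 28.4 CPM (median 18.9) in obese kidneys, against 3.38 to 13.6 CPM (median 8.01) in lean kidneys. It was higher by 1.04 ± 0.24 (2.06-fold, edgeR adjusted p = 0.00205), with 8 of 10 obese kidneys above every lean one.

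Among the AP-1 genes, Atf3, which tubule cells induce under stress, ranged from 10.7 to 23.3 CPM (median 17.7) in obese kidneys, against 1.66 to 18.9 CPM (median 3.28) in lean kidneys. The ranges overlap only through lean replicate 8, since the next lean kidney stood at 4.56 CPM. The log2 fold change of Atf3 was 1.86 ± 0.34 (3.64-fold, edgeR adjusted p = 0.000305), and without lean replicate 8 it was 2.51. Fos ranged from 2.4 to 9.11 CPM (median 4.64) in obese kidneys, against 0.546 to 6.83 CPM (median 1.69) in lean kidneys. It was higher by 1.20 ± 0.32 (2.29-fold, edgeR adjusted p = 0.00705). Every obese kidney exceeded the lean median of Fos, but only 3 exceeded every lean kidney.

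Junb and Jun, partners of FOS in AP-1, had smaller fold changes. Junb averaged 16.7 ± 8.89 CPM in obese kidneys and 9.57 ± 2.17 CPM in lean kidneys (SD, n = 10 each), a log2 fold change of 0.76 ± 0.21 (edgeR adjusted p = 0.00798). Jun ranged from 50.3 to 86.3 CPM (median 64.1) in obese kidneys, against 28.8 to 70.6 CPM (median 45.2) in lean kidneys. It was higher by 0.54 ± 0.13 (1.45-fold, edgeR adjusted p = 0.00282). Fosb, a FOS relative of low level, averaged 0.584 ± 0.182 CPM in obese kidneys and 0.317 ± 0.32 CPM in lean kidneys, and without the count filter its difference did not pass (0.88 ± 0.46, edgeR adjusted p = 0.192).

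Zfp36, whose product destabilises mRNAs, ranged from 31.6 to 74 CPM (median 52.2) in obese kidneys, against 23.7 to 38.9 CPM (median 30.3) in lean kidneys. In 9 of 10 obese kidneys it lay above every lean kidney, and its log2 fold change was 0.78 ± 0.12 (1.71-fold, edgeR adjusted p = 4.93e-05). Ier2 averaged 11.5 ± 4.89 CPM in obese kidneys and 8.28 ± 2.02 CPM in lean kidneys. Its 0.44 ± 0.17 (1.36-fold) passed by little (edgeR adjusted p = 0.0473) and did not pass with DESeq2's size factors (adjusted p = 0.0522), with no count filter (0.0726) or with no plate term (0.0892).

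Replicates 1 to 5 of each group were on plate 1 and replicates 6 to 10 on plate 2. The log2 fold change of Egr2 was 3.89 on plate 1 and 1.86 on plate 2, that of Atf3 2.20 and 1.61, that of Fos 1.44 and 1.03, and that of Egr1 1.15 and 0.94. For Zfp36 it was 0.95 and 0.62, for Junb 0.52 and 1.00, for Jun 0.45 and 0.64, and for Ier2 0.23 and 0.64, in the same plate order. All 8 kept their direction on both plates, but plate 1 alone left 6 called and plate 2 alone, where lean replicate 8 is 1 of 5 lean kidneys, left 0. Without lean replicate 8, the log2 fold change was 3.30 for Egr2, 1.5 for Fos, 1.09 for Egr1, 0.79 for Zfp36, 0.77 for Junb, 0.62 for Jun and 0.50 for Ier2. In the authors' deposited table, 9 of 9 genes were higher in obese kidneys, including Fosb at 0.68 (adjusted p = 0.0495).

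Markers of myeloid cells moved with these genes. Summed over Ptprc, Cd68, Lyz2, Csf1r and Itgam, they stood at 856 to 1180 CPM (median 961) in obese kidneys, against up to 769 CPM (median 371) in lean kidneys, and 5 of 5 were called higher. None of the 5 was at 0 in any kidney library of at least 1000000 counts. Of 4 endothelial markers 3 were called lower, and of 3 smooth muscle markers 1 was called higher. The part of either in the results above was not tested, and in tissue RNA a change in the number of cells of a type and a change in RNA per cell cannot be told apart.

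**Figure D2:**
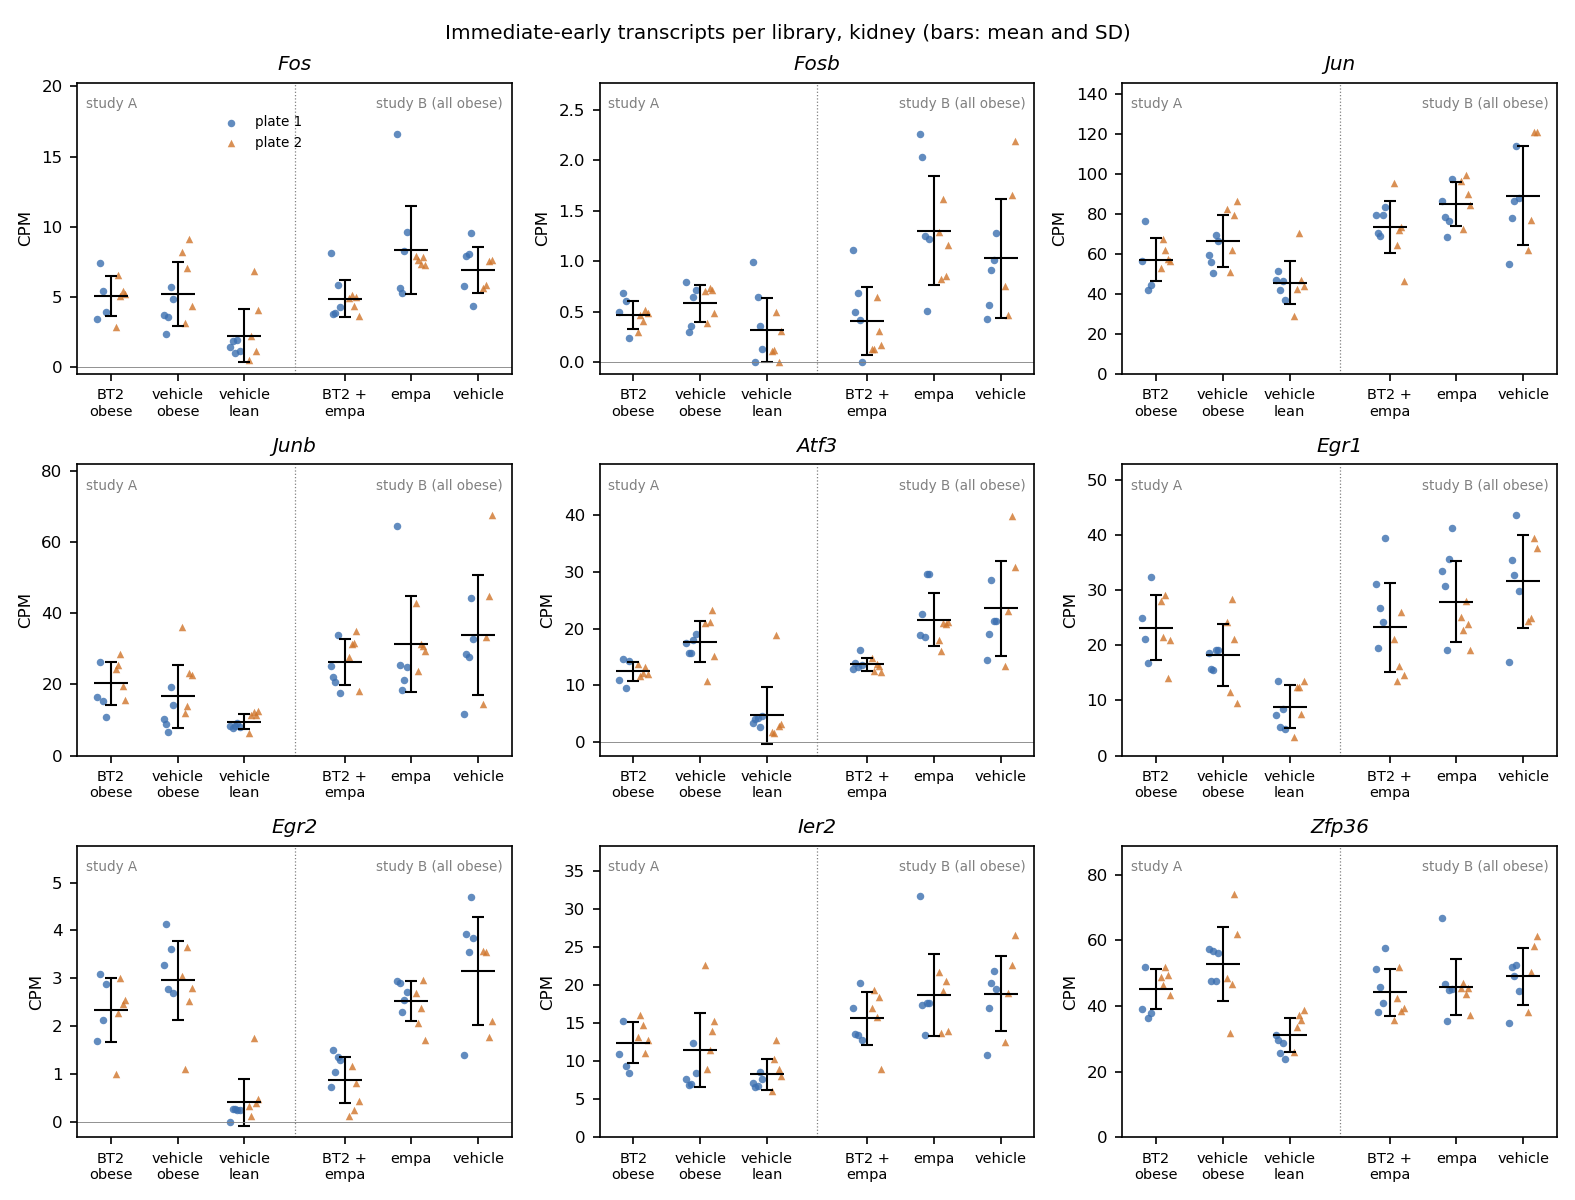
Levels of the 9 immediate-early genes in each kidney library, in CPM, by group; points are libraries (circles plate 1, triangles plate 2), empa is empagliflozin, and bars are group means with SD (n = 10, or 9 for study A BT2 and study B vehicle). Egr2 stands at 1.1 to 4.13 CPM in obese vehicle kidneys and at 0 to 1.76 CPM in lean ones, and combination kidneys stand at 0.127 to 1.49 CPM.

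BT2 alone, set against vehicle in obese kidneys of study A, was followed by a lower level of 1 of the 8 genes tested, where 5.67% of all genes were called and 3.41% were called lower. Atf3 ranged from 9.51 to 14.7 CPM (median 12.2) with BT2, against 10.7 to 23.3 CPM (median 17.7) with vehicle. All 9 BT2 kidneys lay below the vehicle median, and the ranges overlapped. The log2 fold change of Atf3 was -0.50 ± 0.13 (0.708-fold, edgeR adjusted p = 0.0262), -0.44 on plate 1 and -0.53 on plate 2. It did not pass on plate 1 alone (edgeR adjusted p = 0.225), on plate 2 alone (0.339), with all 6 kidney groups in 1 fit (0.167), in the original run alone (0.0511) or with the replicate number as a block (0.0758). The authors' deposited table gave Atf3 -0.45 (adjusted p = 0.00212).

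The other 7 did not pass. Egr1 was at 0.33 ± 0.18 (edgeR adjusted p = 0.257), Junb at 0.29 ± 0.22 and Ier2 at 0.12 ± 0.16, while Egr2 was at -0.31 ± 0.20, Zfp36 at -0.23 ± 0.12, Jun at -0.21 ± 0.11 and Fos at -0.04 ± 0.22. The 95% interval of Fos, -0.49 to 0.41, leaves room for a change of either sign. Of the 5 myeloid markers 1 was called lower, and their sum was 564 to 812 CPM (median 779) with BT2, against 856 to 1180 CPM (median 961) with vehicle.

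BT2-treated obese kidneys were also set against lean vehicle kidneys, a comparison that shares its lean kidneys with the first and its BT2 kidneys with the second. Of 7 genes tested, 6 were higher, where 39.7% of all genes were called and 19% were called higher. Egr1 ranged from 14.1 to 32.5 CPM (median 21.5) with BT2, against 3.38 to 13.6 CPM (median 8.01) in lean kidneys. These ranges did not overlap, which held for 5.34% of all genes. The log2 fold change of Egr1 was 1.35 ± 0.23 (edgeR adjusted p = 9.16e-05), that of Fos 1.10 ± 0.32 and that of Junb 1.05 ± 0.15. Atf3 was 2.54-fold higher (edgeR adjusted p = 0.00389). Without lean replicate 8 and BT2 replicate 2, both flagged for another tissue's transcripts, its log2 fold change was 2.02 ± 0.15 (edgeR adjusted p = 7.3e-10). On plate 2 alone Atf3 did not pass (1.06 ± 0.59, edgeR adjusted p = 0.196). Ier2 was higher by 0.55 ± 0.13 and Zfp36 by 0.52 ± 0.08, and Jun at 0.32 ± 0.13 did not pass (edgeR adjusted p = 0.0533). Egr2 did not reach the count filter here, and without it stood at 2.29 ± 0.39 (edgeR adjusted p = 0.000134). On plate 1 and plate 2, in that order, Egr1 was at 1.55 and 1.18, Junb at 1.04 and 1.07, and Fos at 1.73 and 0.68. Myeloid markers summed to 564 to 812 CPM (median 779) with BT2, against 300 to 769 CPM (median 371) in lean kidneys, and 5 of 5 were called higher, with a median log2 fold change of 0.81. Of 4 endothelial markers 2 were called lower. The 5 ventricle markers, which reached a summed 11100 CPM in a lean kidney, were all called lower (median -4.90). The part of any of these was not tested.

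Empagliflozin alone gave 0 of 9 genes called against vehicle in obese kidneys of study B, where 1.06% of all genes were called. None had an unadjusted p under 0.05, and DESeq2 also called 0. Log2 fold changes ran from -0.28 ± 0.20 for Egr2 to 0.35 ± 0.31 for Fosb (edgeR adjusted p 0.451 to 0.911). The narrowest 95% intervals were those of Zfp36, -0.32 to 0.13, and Jun, -0.34 to 0.17, and the widest were those of Fosb, -0.29 to 0.98, and Junb, -0.67 to 0.42. Fos ranged from 5.27 to 16.6 CPM (median 7.77) with empagliflozin, against 4.39 to 9.59 CPM (median 7.58) with vehicle, and the groups overlapped. Myeloid markers summed to 540 to 1320 CPM (median 831) with empagliflozin, against 501 to 1090 CPM (median 802) with vehicle, and 0 of 5 were called.

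The combination, against vehicle of the same study, gave lower levels of 4 of the 8 genes tested in kidney, where 32.1% of all genes were called and 14.8% were called lower. The median log2 fold change of the 8 was -0.43, against 0.01 over all genes tested.

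Egr2 again stood furthest apart, with few counts in combination kidneys, 1 to 29 each. It ranged from 0.127 to 1.49 CPM (median 0.92) in combination kidneys, against 1.39 to 4.69 CPM (median 3.54) in vehicle kidneys. Only 1 combination kidney reached into the vehicle range. The log2 fold change was -1.79 ± 0.29 (0.289-fold, edgeR adjusted p = 6e-05), with -1.55 on plate 1 and -2.11 on plate 2. Egr1 ranged from 13.6 to 39.5 CPM (median 22.6) in combination kidneys, against 17 to 43.6 CPM (median 32.7) in vehicle kidneys. It was lower by -0.47 ± 0.17 (0.722-fold, edgeR adjusted p = 0.037), with -0.20 on plate 1 and -0.78 on plate 2, and its call was lost with no plate term (adjusted p = 0.0629).

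Atf3 ranged from 12.3 to 16.3 CPM (median 13.6) in combination kidneys, against 13.4 to 39.9 CPM (median 21.4) in vehicle kidneys. All 10 combination kidneys lay below the vehicle median. The log2 fold change of Atf3 was -0.76 ± 0.15 (0.592-fold, edgeR adjusted p = 0.000583), with -0.60 on plate 1 and -0.93 on plate 2. Fos ranged from 3.68 to 8.11 CPM (median 4.65) in combination kidneys, against 4.39 to 9.59 CPM (median 7.58) in vehicle kidneys. It was lower by -0.53 ± 0.16 (0.691-fold, edgeR adjusted p = 0.0136), with -0.49 on plate 1 and -0.60 on plate 2. It lay below the vehicle median in 9 of 10 combination kidneys and did not pass with all 6 groups in 1 fit (adjusted p = 0.0965).

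The other 4 tested genes did not pass. Jun averaged 73.3 ± 13 CPM in combination kidneys and 89.1 ± 24.6 CPM in vehicle kidneys (n = 10 and 9), at -0.31 ± 0.14 (edgeR adjusted p = 0.0895). Junb was at -0.39 ± 0.22 and Ier2 at -0.32 ± 0.16. Zfp36 averaged 44.2 ± 7.22 CPM in combination kidneys and 49 ± 8.63 CPM in vehicle kidneys, at -0.15 ± 0.10 with a 95% interval of -0.37 to 0.06. Fosb did not reach the count filter, and without it stood at -1.41 ± 0.47 (edgeR adjusted p = 0.0321). Without the 4 combination kidneys that carried another tissue's transcripts, Egr2 was at -2.07, Atf3 at -0.80, Fos at -0.75 and Egr1 at -0.60. The authors' deposited table called 5 genes lower, with Egr2 at -1.74, Fosb at -0.97, Atf3 at -0.75, Fos at -0.45 and Egr1 at -0.39. These sizes are not to be compared with those above (see the processing section).

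Against empagliflozin alone, the combination gave lower levels of 3 of 8 genes, where 31.7% of all genes were called and 14.8% were called lower. Egr2, at 0.127 to 1.49 CPM in combination kidneys and 1.7 to 2.97 CPM in empagliflozin kidneys, did not overlap between the groups, which held for 2.57% of all genes. Its log2 fold change was -1.53 ± 0.26 (edgeR adjusted p = 0.00013). Atf3, at 12.3 to 16.3 CPM in combination kidneys and 16 to 29.6 CPM in empagliflozin kidneys, was lower by -0.66 ± 0.09 (edgeR adjusted p = 1.81e-05). Fos was lower by -0.78 ± 0.19 (edgeR adjusted p = 0.00298). On plate 1 and plate 2, in that order, Egr2 stood at -1.17 and -1.97, Atf3 at -0.78 and -0.55, and Fos at -0.82 and -0.73. Fosb, tested only without the count filter, was at -1.71 ± 0.42 (edgeR adjusted p = 0.0047). This comparison shares its combination kidneys with the one before.

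Myeloid markers moved in the same direction here. Their sum was 310 to 471 CPM (median 397) in combination kidneys, against 501 to 1090 CPM (median 802) in vehicle kidneys, and 5 of 5 were called lower, Cd68 by -1.25 ± 0.13 and Lyz2 by -1.10 ± 0.11. Against empagliflozin 5 of 5 were lower too. Of 3 smooth muscle markers 2 were lower against vehicle. The part of either in the levels of Egr2, Atf3, Fos and Egr1 was not tested.

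**Figure D3:**
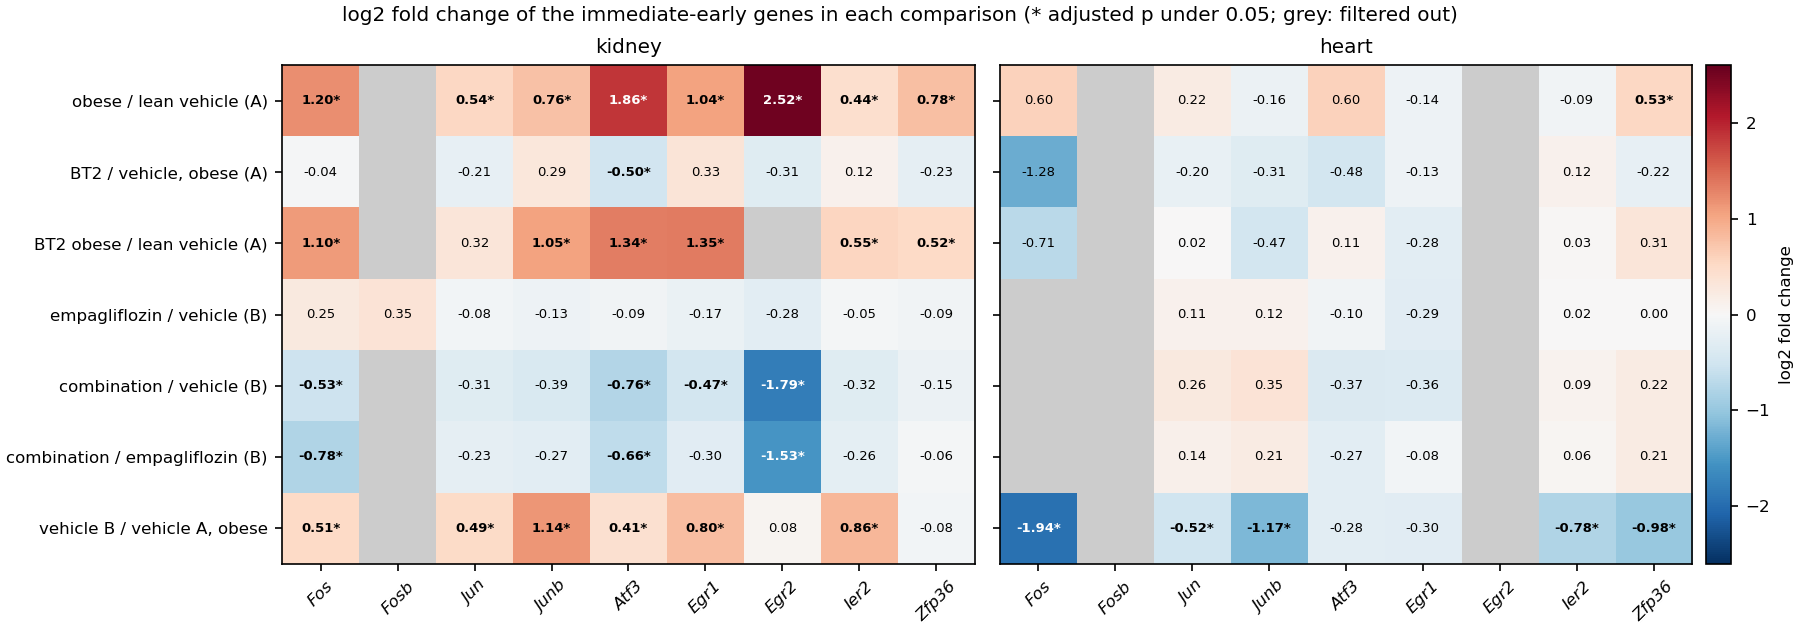
Log2 fold changes of the immediate-early genes by comparison and organ, with called values marked by an asterisk; grey cells did not reach the count filter. In kidney, obese against lean shows 0.44 to 2.52 over 8 genes, and combination against vehicle shows -1.79 to -0.15.

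Whether BT2 was followed by a different change with and without empagliflozin was tested as the difference of combination against empagliflozin and BT2 against vehicle, where 7.94% of all genes were called and 3.15% were called lower. Egr2 differed, at -1.22 ± 0.33 (edgeR adjusted p = 0.0185), and the other 7 genes tested did not pass. Egr2 was -1.53 with empagliflozin, against -0.31 without it. The presence of empagliflozin and the study cannot be told apart in this contrast. In heart 0 of 7 genes and 0 of all genes passed by edgeR, DESeq2 also called 0 of all genes, and Fos, Jun and Zfp36 had an unadjusted p under 0.05, Fos through its study A hearts.

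The order of the kidney groups was described within each study from their means, taking neighbours apart where they differed by more than the larger SD. In study A, Egr2 stood at 2.34 ± 0.671 CPM with BT2, 2.96 ± 0.829 CPM in obese vehicle and 0.408 ± 0.49 CPM in lean kidneys. Lean kidneys were the lowest and stood apart from BT2, and BT2 and obese vehicle did not stand apart. In study B it stood at 0.869 ± 0.478 CPM with the combination, 2.52 ± 0.412 CPM with empagliflozin and 3.15 ± 1.12 CPM with vehicle, and the combination alone stood apart from its neighbour. Atf3 stood at 12.5 ± 1.68 CPM with BT2, 17.7 ± 3.65 CPM in obese vehicle and 4.72 ± 5.06 CPM in lean kidneys of study A, and all 3 stood apart. In study B it stood at 13.7 ± 1.16 CPM with the combination, 21.6 ± 4.63 CPM with empagliflozin and 23.6 ± 8.38 CPM with vehicle, with the combination apart from empagliflozin. Among the study A groups, lean kidneys had the lowest mean of all 9 genes.

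The vehicle groups of the studies differed in many genes, most of the tested immediate-early genes among them. In kidney, 6 of 8 were higher in study B vehicle than in study A obese vehicle, where 65.4% of all genes were called and 33.9% were called higher. Junb, at 11.6 to 67.6 CPM (median 32.8) in study B and 6.58 to 36.3 CPM (median 14) in study A, was higher by 1.14 ± 0.27 (edgeR adjusted p = 0.0009). Ier2 was higher by 0.86 ± 0.18, Egr1 by 0.80 ± 0.18, Fos by 0.51 ± 0.21, Jun by 0.49 ± 0.13 and Atf3 by 0.41 ± 0.17. Egr2 at 0.08 ± 0.22 and Zfp36 at -0.08 ± 0.12 did not pass. Junb was at 1.30 on plate 1 and 0.96 on plate 2, and Fos at 0.82 and 0.14, and on plate 2 alone 0 of the genes were called.

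In heart the same contrast ran the other way, with 5 of 7 genes lower in study B vehicle, where 11.7% of all genes were called and 8.29% were called lower. Fos, at 0.155 to 1.43 CPM (median 0.742) in study B and 0.251 to 11.1 CPM (median 1.82) in study A, was lower by -1.94 ± 0.45 (edgeR adjusted p = 0.00853). Study B vehicle hearts held 1 to 18 counts of Fos and study A obese vehicle hearts 4 to 120. Fos thus reached the count filter through study A and was near the floor in study B. Junb, at 1.04 to 5.73 CPM (median 2.37) in study B and 1.57 to 12 CPM (median 5.31) in study A, was lower by -1.17 ± 0.21 (edgeR adjusted p = 0.00143). Zfp36 was lower by -0.98 ± 0.14, Ier2 by -0.78 ± 0.13 and Jun by -0.52 ± 0.09. Egr1 at -0.30 ± 0.15 and Atf3 at -0.28 ± 0.20 did not pass. On plate 1 and plate 2, in that order, Fos was at -1.06 and -2.44, Junb at -0.93 and -1.33, Zfp36 at -0.87 and -1.07, Ier2 at -0.77 and -0.79, and Jun at -0.46 and -0.57. With no plate term Zfp36 alone passed. The heart minus kidney difference of this contrast passed for 6 of the 7 genes tested in heart, where 51.4% of all genes were called and 23.7% were lower in heart, from -2.39 ± 0.49 for Fos and -2.25 ± 0.36 for Junb to -0.84 ± 0.19 for Zfp36. Fos is among these genes through its study A hearts. The studies have no other group in common, so levels are not compared between a study A and a study B treatment.

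Within the studies the heart showed few differences. Obese against lean hearts gave 1 of 7 genes higher, where 5.36% of all genes were called and 3.32% were called higher. Zfp36 ranged from 18.6 to 56.5 CPM (median 26.7) in obese hearts, against 11.7 to 31.5 CPM (median 20.2) in lean hearts, with much overlap. It was higher by 0.53 ± 0.14 (1.45-fold, edgeR adjusted p = 0.0292), with 0.47 on plate 1 and 0.58 on plate 2. Without obese replicate 10, flagged by Myl7 or Myh4, it was at 0.46 and did not pass (edgeR adjusted p = 0.0575), and neither did it with no plate term (edgeR adjusted p = 0.197). Atf3 ranged from 3.33 to 14.9 CPM (median 5.61) in obese hearts, against 2.55 to 6.94 CPM (median 3.83) in lean hearts. Its 0.60 ± 0.18 missed the threshold by edgeR (adjusted p = 0.0585) and passed by DESeq2 (adjusted p = 0.0302). The authors' deposited table called both higher, Zfp36 at 0.43 and Atf3 at 0.44.

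No immediate-early gene was called in heart in the other comparisons by edgeR. BT2 against vehicle gave 0 of 7, where 0.0558% of all genes were called. Fos (-1.28 ± 0.47), Atf3 (-0.48 ± 0.20) and Jun (-0.20 ± 0.09) had an unadjusted p under 0.05, with adjusted p of 0.42 to 0.599. BT2-treated obese against lean hearts gave 0 of 7 (4.27% of all genes called), with Zfp36 at 0.31 ± 0.10 (edgeR adjusted p = 0.0884). Empagliflozin gave 0 of 6 (0.107% of all genes called), with Egr1 at -0.29 ± 0.13 alone under 0.05 unadjusted. The combination gave 0 of 6 (5.13% of all genes called), with Jun at 0.26 ± 0.10 and Zfp36 at 0.22 ± 0.10 under 0.05 unadjusted. Against empagliflozin it gave 0 of 6 (0.0249% of all genes called) and none under 0.05 unadjusted. DESeq2 called 0 in each of these 5 comparisons as well. Egr2 in heart stayed under 1 CPM in every library, with group means of 0.359 to 0.477 CPM, and Fosb group means were 0.376 to 0.582 CPM, so neither reached the count filter, and in study B hearts Fos did not reach it either.

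**Figure D4:**
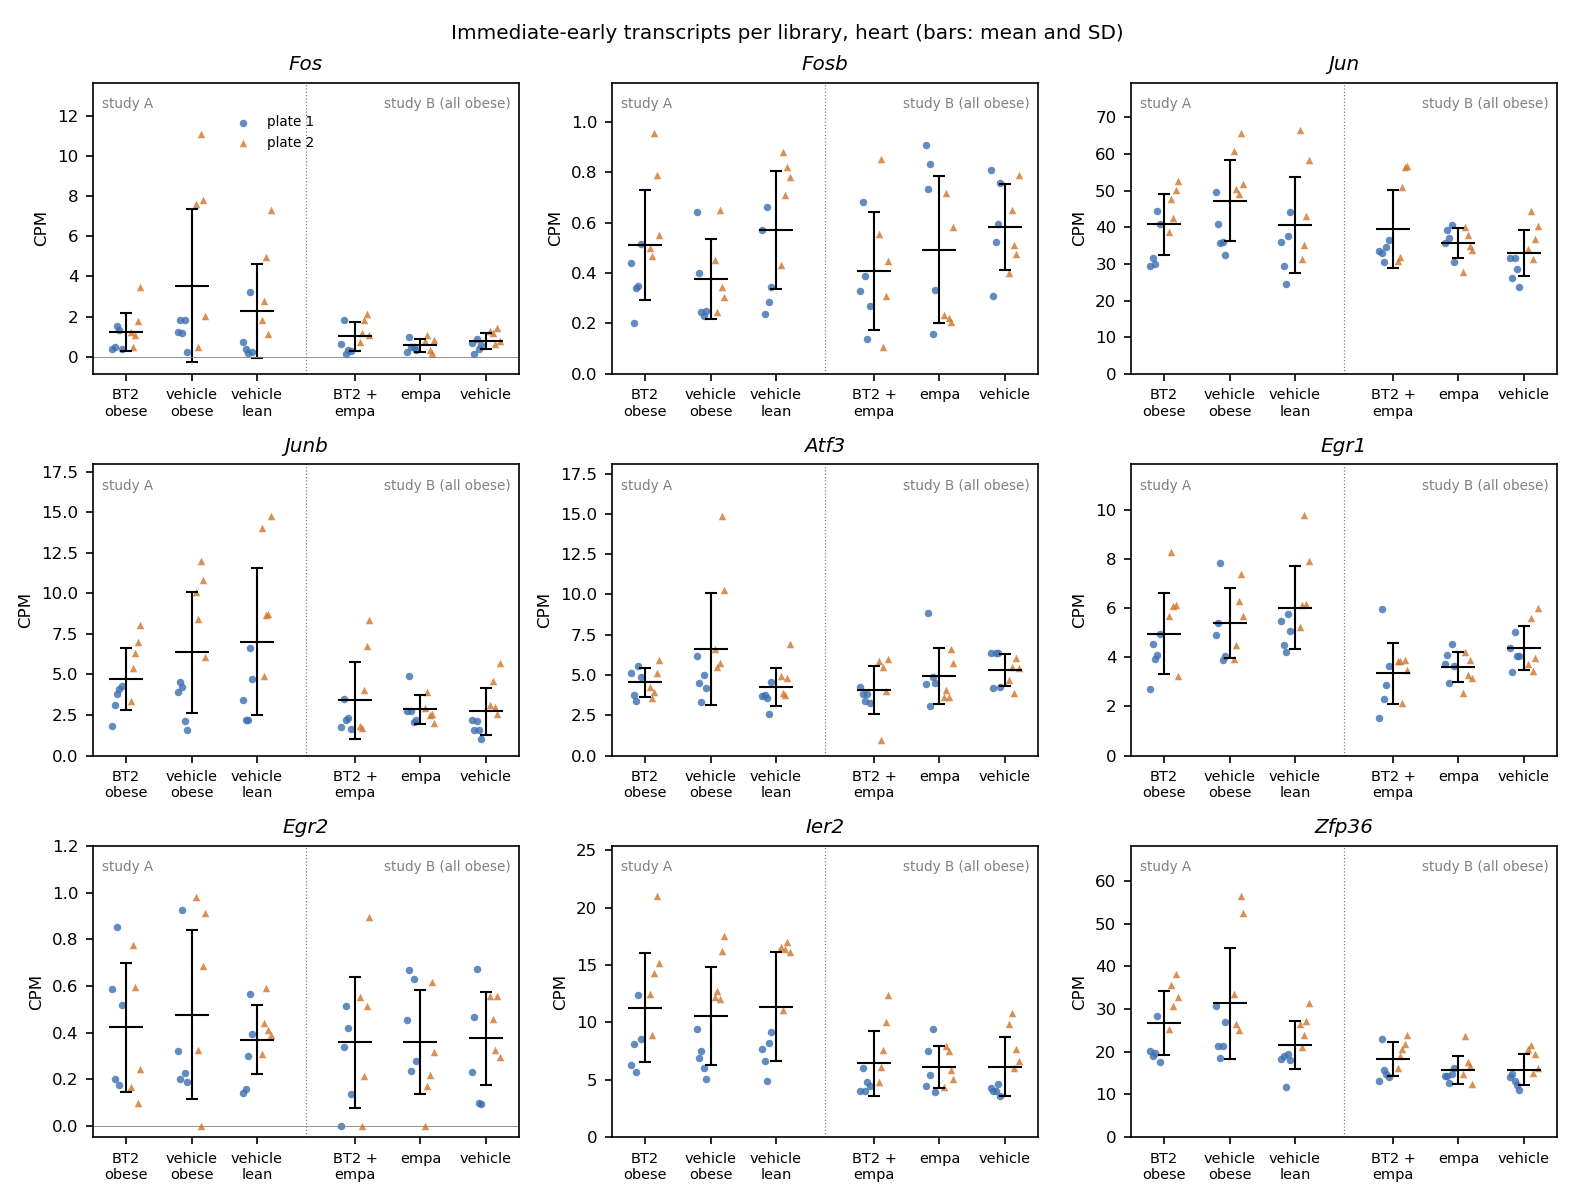
Levels of the 9 immediate-early genes in each heart library, in CPM, by group; points are libraries (circles plate 1, triangles plate 2), empa is empagliflozin, and bars are group means with SD (n = 10 each). Fos reaches 11.1 CPM in study A obese vehicle hearts and 1.43 CPM in study B vehicle hearts.

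Whether the organs differed in their response was tested as the heart minus kidney difference of each contrast. All heart minus kidney tests treated the libraries of the organs as independent, since the labels do not tie them by rat. Their SEs and p-values rest on that. Only genes that also reached the count filter in heart alone are counted. Egr2 did not in any comparison, nor did Fos in those of study B. For obese against lean 14% of all genes were called and 7.64% were lower in heart, and 2 of 7 immediate-early genes were, Atf3 (-1.27 ± 0.40, edgeR adjusted p = 0.0282) and Egr1 (-1.17 ± 0.30, edgeR adjusted p = 0.00602). Without libraries of low depth or with another tissue's transcripts Atf3 was at -2 and Egr1 at -1.26. Zfp36, called in both organs, did not pass this test (-0.24, 95% interval -0.63 to 0.15). For BT2-treated obese against lean rats 17.7% of all genes were called and 11.9% were lower in heart, and 5 of 7 immediate-early genes were lower in heart: Fos at -1.91 ± 0.60, Egr1 at -1.72 ± 0.28, Junb at -1.60 ± 0.28, Atf3 at -1.36 ± 0.36 and Ier2 at -0.61 ± 0.21. For BT2 against vehicle (0.528% of all genes called) and empagliflozin against vehicle (1.39%) edgeR called 0 of the genes; in the BT2 contrast Fos, at -1.23 ± 0.52, had an unadjusted p under 0.05, and DESeq2 called 0 as well.

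For the combination against vehicle, where 16.2% of all genes were called and 8.3% were higher in heart, 1 of 6 genes was higher in heart, Jun by 0.58 ± 0.18 (edgeR adjusted p = 0.0231). Without libraries of low depth or with another tissue's transcripts, Jun stood at 0.63 (edgeR adjusted p = 0.0926) and did not pass. For the combination against empagliflozin, where 10.4% were called and 5.09% were higher in heart, 0 of 6 genes passed by edgeR and 0 by DESeq2, and Jun alone had an unadjusted p under 0.05.

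Egr2 entered these fits through its kidney counts, since its 0 to 15 counts per heart library were under the filter. The fitted heart minus kidney values of Egr2 were -2.13 ± 0.58 for obese against lean, -2.06 ± 0.52 for BT2-treated obese against lean, 1.77 ± 0.54 for the combination against vehicle and 1.67 ± 0.56 against empagliflozin. That of Fos was 1.53 ± 0.41 for the combination against empagliflozin, likewise with too few counts in heart. These are given as values only and compare no change between the organs.

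Myeloid markers also differed between the organs in these contrasts. Their heart minus kidney difference was lower in heart for 3 of 5 in obese against lean (median -0.73) and for 4 of 5 in BT2-treated obese against lean (median -0.86). It was higher in heart for 5 of 5 with the combination, against vehicle (median 1.26) and against empagliflozin (median 1.23). Their part in the differences above was not tested.

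The plate named in the labels moved with these genes in heart. With group as a term, a contrast added after the data were seen, 6 of 7 genes were higher on plate 2 than on plate 1, where 69.1% of all genes were called and 36.9% were called higher. Ier2 was higher on plate 2 by 0.81 ± 0.10 (edgeR adjusted p = 4.62e-10), Fos by 1.38 ± 0.27, Junb by 1.01 ± 0.15, Zfp36 by 0.52 ± 0.07, Jun by 0.37 ± 0.07 and Egr1 by 0.22 ± 0.10. Ier2 averaged 15.4 ± 2.44 CPM on plate 2 and 7.31 ± 1.66 CPM on plate 1 in lean hearts, and 14.1 ± 2.55 and 6.99 ± 1.65 CPM in study A obese vehicle hearts (SD, n = 5 each). In empagliflozin hearts it averaged 6.14 ± 1.53 CPM on plate 2 and 6.15 ± 2.27 CPM on plate 1. In kidney 2 of 9 were higher on plate 2, where 41.7% of all genes were called and 20.6% were called higher: Junb by 0.41 ± 0.13 and Ier2 by 0.26 ± 0.10. Each plate held 5 libraries of every group.

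Within groups the levels of many immediate-early genes varied together from library to library. The first values below leave plate differences in and permute libraries across plates. In heart, where these genes differed by plate, their p-values do not measure rat-to-rat spread alone. Over deviations from the group mean of log2(CPM + 0.5), 29 of 36 pairs of genes in kidney (58 libraries) and 20 of 36 in heart (60 libraries) were positively correlated (permutation test within groups, two-sided, Benjamini-Hochberg over the 36 pairs of the organ). The smallest r that passed was 0.29 in kidney and 0.30 in heart. Over all pairs of other genes of at least 5 CPM, 18% in kidney and 28.4% in heart had an r at least that large, and the median r was 0.00 in kidney and 0.01 in heart. Pearson's r ran from 0.02 to 0.90 in kidney, with a median of 0.39, and from -0.09 to 0.84 in heart, with a median of 0.34. The closest pair in kidney was Junb with Ier2, at r = 0.90 and Spearman's rho = 0.90 (each with permutation p = 1e-05, the smallest that 100000 permutations can give), and r = 0.88 without the 2 libraries farthest from the median. In the single kidney groups its r was 0.81 to 0.98. Jun with Ier2 followed at 0.75 and Jun with Junb at 0.73, while Fosb with Egr2 was at 0.02.

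In heart the closest pair was Jun with Junb, at r = 0.84 and rho = 0.79, and 0.82 without the 2 farthest libraries. Jun with Ier2 was at 0.82 and Junb with Ier2 at 0.80. Centred on group and plate, 7 heart pairs passed in place of 20, with Jun and Junb at 0.74 and Junb and Ier2 at 0.55, and 28 kidney pairs passed in place of 29. With that centring, 8.78% of all pairs in heart reached the smallest r that passed, 0.45, and 11.7% in kidney reached 0.33. Against the mean of the other 8 genes, r in kidney was highest for Jun (0.80), Ier2 (0.75) and Fos (0.73) and lowest for Egr2 (0.32). In heart it was highest for Junb (0.83) and Ier2 (0.81) and lowest for Fosb (0.22). All genes of a library share its depth and its rat.

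**Figure D5:**
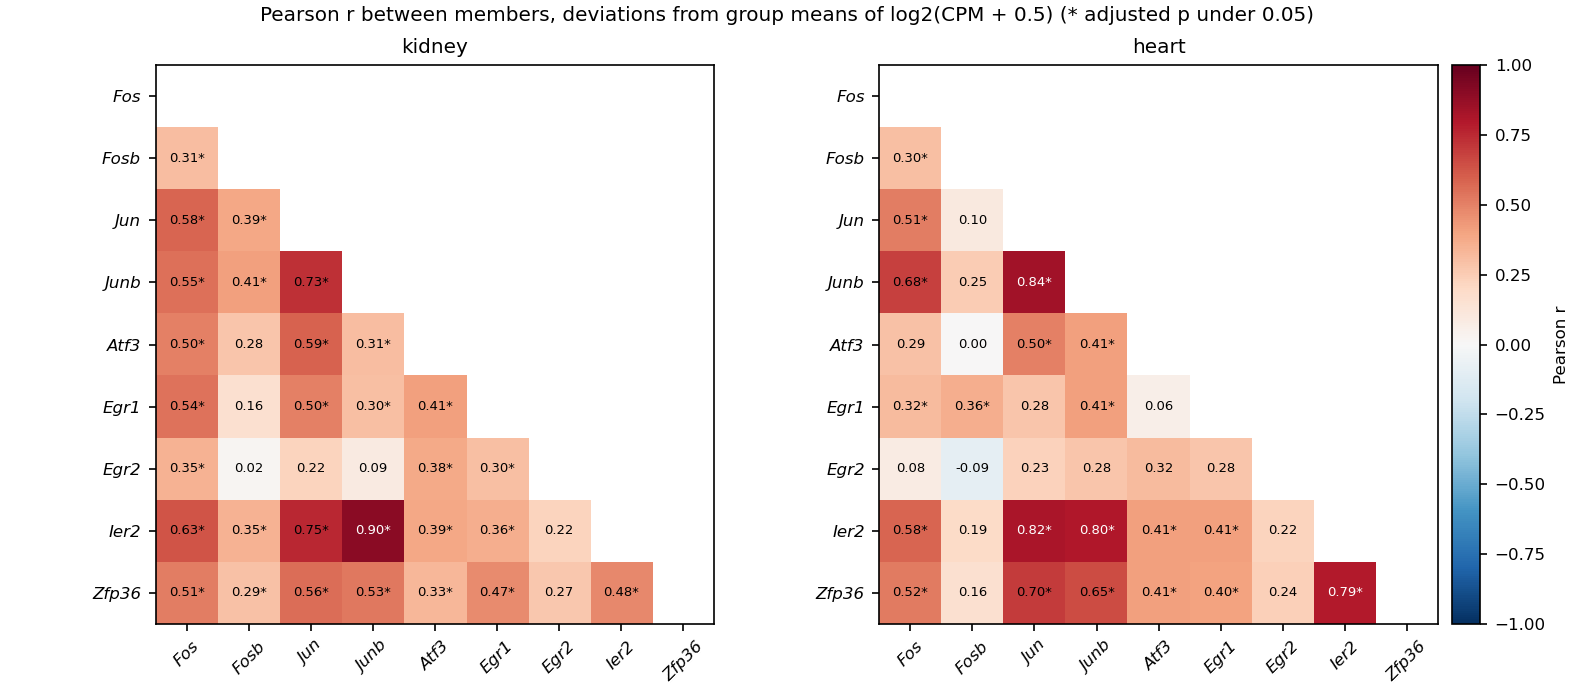
Pearson's r between immediate-early genes over within-group deviations of log2(CPM + 0.5), in kidney (58 libraries) and heart (60 libraries). Junb and Ier2 are closest in kidney at 0.90 and Jun and Junb in heart at 0.84, while Fosb with Egr2 is at 0.02 in kidney and -0.09 in heart; an asterisk marks adjusted p under 0.05.

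The 6 other genes whose within-group deviations were most like the mean of the 9 in kidney, over 58 libraries and 11679 genes of at least 5 CPM, were Itgb4 (r = 0.80), Btg2 (0.79), Sfn (0.78), Ptprs (0.78), Nfkb2 (0.77) and C1qc (0.77). The median r of all genes compared was -0.01. In heart, over 60 libraries and 9097 genes with a median r of -0.06, they were Hspb1 (0.84), Sbno2 (0.83), Abhd17a (0.83), Lmna (0.82), Znrf1 (0.82) and Ppp1r12c (0.82). These values are descriptions, and the libraries share their plate and sequencing run.

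Other early-response genes were described from lists, whose counts are to be read against the share of all genes called in that direction. In obese against lean kidneys, 14 of 23 other early genes tested were higher and 0 lower, where 16.9% of all genes were called higher, with a median log2 fold change of 0.42 against -0.02 over all genes tested. They included Ccn2, a matricellular growth factor gene, at 1.13 ± 0.11 (edgeR adjusted p = 5.34e-07), Klf10 at 1.01, Klf6 at 1.14 and Myc at 1.64. Of 16 genes of feedback inhibitors 8 were higher and 0 lower, among them Socs3, a brake on cytokine signalling, at 2.15, Nfkbiz at 1.69 and Tnfaip3 at 0.97. Of 6 other AP-1 genes 3 were higher, Fosl2 at 0.85, Jund at 0.41 and Maff at 0.37. Of 5 other EGR, Nab and Nr4a genes tested 1 was higher and 0 lower, with a median of 0.29. Of 10 mRNAs with AU-rich elements known to be bound by tristetraprolin, 5 reached the count filter and 5 were higher, such as Lif at 2.47, Ccl2 at 1.03, Tnf at 0.75 and Ptgs2 at 0.71. Of 6 heat shock genes 0 were higher and 1 was lower (Hsph1, -0.36).

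With the combination against vehicle in kidney, 9 of 24 other early genes were lower and 4 higher, where 14.8% of all genes were called lower and 17.3% higher, with a median of -0.16. Errfi1, a feedback inhibitor of the EGF receptor, was at -0.71, Trib1 at -0.66 and Klf10 at -0.53, while the clock gene Per1 was higher at 0.64. Of 16 feedback inhibitors 4 were lower, Socs3 at -0.78 and Nfkbiz at -0.69 among them, and Dusp5, a phosphatase of ERK, was higher at 0.43. Of 4 other EGR, Nab and Nr4a genes tested 1 was higher and 0 lower, with a median of 0.24. Of the 5 mRNAs with AU-rich elements that were tested, 3 were lower (Tnf at -0.73, Lif at -0.71, Ccl2 at -0.50) and Ptgs2 was higher at 0.50. BT2 alone gave 3 of 24 early genes lower and 1 higher, where 3.41% of all genes were called lower and 2.26% higher, with Errfi1 at -0.93 and Klf6 at -0.49 lower and Gadd45b at 0.56 higher. Of 5 other EGR, Nab and Nr4a genes tested with BT2, 1 was higher and 0 lower, with a median of 0.08. The 1 higher was Nab2, a corepressor that binds EGR proteins, at 0.64. With empagliflozin alone Ptgs2, cyclooxygenase-2, was higher by 1.16 ± 0.25 (edgeR adjusted p = 0.0289).

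In obese against lean hearts 7 of 23 other early genes were higher and 0 lower, where 3.32% of all genes were called higher, among them Myc at 1.00, Gadd45g at 1.01, Arc at 0.98 and Klf10 at 0.69. In study B vehicle against study A vehicle hearts 13 of 23 were lower and 0 higher, where 8.29% of all genes were called lower, with Arc at -1.37, Klf2 at -0.94, Per1 at -0.92 and Klf4 at -0.44.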

How the data were processed

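Poly-A RNA of ZSF1 rat kidney and heart was sequenced as stranded, paired reads of 75 bases, per the labels' protocols. The deposited tables hold expected counts (estimated counts per gene and run, not normalized, 6.61% of values not whole). The authors' comparison tables hold signal (counts the authors scaled per library), log2 fold changes and p-values. Their log2 fold changes are not sized like those of edgeR: Fos in heart BT2 against vehicle was 0.00 there and -1.28 by edgeR. Their tables also lack 3 kidney libraries that the fits here keep. Tools named in the submitters' processing notes are DESeq2 1.34.0, STAR 2.7.3a and Salmon 1.5.2, with build mRatBN7.2. Of the count columns 163 were used, and 82 matching no sample were not used here. Repeat runs (43 libraries) were summed, to which the authors' scaled counts were proportional in 56 of 56 columns checked, and sums were rounded to whole numbers.

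Fits used R 4.3.3 and edgeR 4.0.16: filterByExpr, TMM, trended dispersion, quasi-likelihood F test with plate as covariate on each pair of groups, Benjamini-Hochberg over all genes tested, called under 0.05. Steps were tested on simulated data. Libraries under 1000000 counts stayed in fits but not in means, SDs or correlations. The genes, lists and naming rule (all 9 genes, up to 4 called genes per list by adjusted p, 6 most similar genes per organ) were chosen with earlier results of these data known. An alternative without the 3 kidney libraries that the authors' tables lack was added after the data were seen. Alternatives included DESeq2 1.42.0. Replicates are separate rats per the series text. Intervals and SDs cover sampling and rat-to-rat spread only. Some genes are not reported here.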

Additional observations from a re-analysis of the deposited data

Results flagged for a closer look

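Of 108 sets of 1 gene in 1 group, 6 had a library far from the others (gap to the nearest library over the whole range, above Dixon's 95% critical value); chance gives about 1 in 20. In lean kidneys, replicate 8, the library with muscle transcripts, held Atf3 at 18.9 CPM with the next at 4.56 (0.61 of the range) and Egr2 at 1.76 with the next at 0.469 CPM (0.56). Study A obese vehicle kidney replicate 7 held Egr2 at 1.1 with the next at 2.52 CPM (0.60). Empagliflozin kidney replicate 1 held both Fos at 16.6 with the next at 9.65 CPM (0.48) and Zfp36 at 66.8 with the next at 46.9 CPM (0.56). Combination heart replicate 7 held Atf3 at 0.959 with the next at 3.25 CPM (0.63). The cause was not tested.

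The heart minus kidney difference was called in edgeR for 19 gene values, not all of which compare the organs, for the reason given below. Of all genes, 14% were called for obese against lean and 17.7% for BT2-treated obese against lean. The share was 16.2% for combination against vehicle, 10.4% for combination against empagliflozin and 51.4% for study B vehicle against study A vehicle. Obese against lean gave -2.13 for Egr2, -1.27 for Atf3 and -1.17 for Egr1. BT2-treated obese against lean vehicle gave -2.06 for Egr2, -1.36 for Atf3, -1.91 for Fos, -1.72 for Egr1, -0.61 for Ier2 and -1.60 for Junb. Combination against vehicle gave 1.77 for Egr2 and 0.58 for Jun, and combination against empagliflozin gave 1.67 for Egr2 and 1.53 for Fos. Study B vehicle against study A vehicle gave -2.39 for Fos, -1.04 for Egr1, -0.94 for Jun, -0.84 for Zfp36, -1.58 for Ier2 and -2.25 for Junb. Egr2 in these contrasts, and Fos in combination against empagliflozin, had too few heart counts to be tested in heart alone, so those values passed the filter through kidney and compare no change between the organs. Fos in study B vehicle against study A vehicle reached the filter in heart through study A. In kidney the BT2 change of Egr2 differed with empagliflozin from that without it by -1.22.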

How the results depend on the processing

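Of 449 alternative values for the 54 called gene values, 383 kept their direction and call, 66 lost the call and 0 changed direction; plate 2 alone, with 5 libraries a group, accounts for 24 losses, plate 1 alone for 10 and leaving out the plate term for 8. Of 187 alternative counts 166 stayed within 1.5 times. The number of genes called moved as follows. Kidney obese against lean: 0 of the main 8 on plate 2 alone. Kidney BT2: 0 in place of 1 on plate 1 alone, on plate 2 alone, with all 6 groups in 1 fit, in the original run alone and with the replicate number as a block. Kidney combination against vehicle: 2 in place of 4 on plate 1 alone. Kidney vehicle B against A: 0 in place of 6 on plate 2 alone. Heart obese against lean: 2 in place of 1 by DESeq2 and in 1 fit of 6 groups, and 0 with no plate term, on either plate alone and without libraries with another tissue's transcripts. Heart empagliflozin: 1 in place of 0 on plate 1 alone. Heart vehicle B against A: 1 in place of 5 with no plate term, 3 on plate 1 alone and 0 on plate 2 alone. The heart minus kidney differences of the combination, against vehicle and against empagliflozin, gave 0 in place of 2, Egr2 and Fos included, without low-depth and other-tissue libraries. Heart pairs were 7 in place of 20 with deviations from group and plate. Jun in heart with empagliflozin was -0.12 on plate 2 alone, against 0.11, uncalled both times. The causes of these moves were not tested.

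Over all genes, counts ranged by alternative from 976 to 5423 (4560 in the main analysis) for kidney obese against lean, 70 to 1357 (812) for kidney BT2, 2451 to 7058 (5506) for BT2-treated obese against lean kidney, 2 to 623 (149) for kidney empagliflozin, 1754 to 4861 (4510) for kidney combination against vehicle, 1133 to 4698 (4442) against empagliflozin, and 5397 to 9792 (9442) for kidney vehicle B against A. In heart, in the same order, they ranged from 49 to 1068 (680), 0 to 95 (7), 25 to 832 (540), 0 to 1236 (13), 6 to 898 (622), 0 to 65 (3) and 0 to 1911 (1459). For the heart minus kidney differences the widest were combination against vehicle, 1127 to 2684 (2381), combination against empagliflozin, 523 to 1826 (1516), empagliflozin, 83 to 538 (205), and BT2, 94 to 225 (79).

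Deviations of libraries with the same replicate number correlated over 0.1 in 18 of 65 kidney pairs and 19 of 70 heart pairs. By comparison, this share ran from 10% to 60% in kidney and from 0% to 50% in heart. Libraries of unlike number were not set beside these, so the counts cannot say whether the numbers pair the libraries. With the number as a block, 4 calls were lost, among them Atf3 in kidney BT2 (adjusted p = 0.0758), Ier2 in obese against lean kidney (0.113) and Egr1 in combination against vehicle kidney (0.068). Depth limits Fosb, Egr2 in lean kidneys, and Egr2 and Fos in heart, which had few counts.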
